A study of Homo sapiens with 61 samples.

Results

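The human genes named ZNF and a number encode proteins with zinc fingers, small folds that each read a few bases of DNA, and chromosome 19 holds long runs of them. The genes described here are the protein-coding ones whose symbol is ZNF followed by a number and whose listed position is on chromosome 19. Symbols were taken from the GENCODE 29 annotation. The rule found 249 genes among 58440 gene identifiers, and 514 protein-coding ZNF genes in all, of which 265 lie on other chromosomes. A filter on low counts kept 228 of the 249 in experiment 1 (of 18235 genes kept) and 228 in experiment 2 (of 20759), and 21 were not tested in each. In experiment 2, 8 of those 21 had no count in any library. The rule itself used no measured value other than this filter, but it was chosen with earlier results of these data known.

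Most of these proteins carry a KRAB domain at their start, through which they bind the corepressor TRIM28 (also called KAP1). TRIM28 brings in the histone methyltransferase SETDB1, and the bound DNA is packed into silent chromatin. Many of the genes arose by tandem duplication, so that neighbours resemble each other, and many of their proteins bind and repress transposable elements such as LINE and SVA retrotransposons. In neural cells this machinery is known for holding transposable elements silent. Some members, ZNF667 and ZNF471 among them, are known for promoters that are methylated and silent in tumours.

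RNA was measured in 61 libraries of cortical-type neurons differentiated by switching on the transcription factor NGN2 in WTC11, a widely used line of human induced pluripotent stem cells. Experiment 1 had 4 lines, all with a doxycycline-driven NGN2 cassette: wild type (WT) and 3 knockouts of stress-activated kinases, called DLK KO (gene MAP3K12), LZK KO (gene MAP3K13) and DLK LZK double KO (both genes). Each was treated on day 14 for 16 hours with 5 nM vincristine, which destabilises microtubules, or with DMSO vehicle (untreated), with 4 libraries in each of the 8 groups. Experiment 2 used neurons that carry the CRISPR interference machinery and received a lentivirus with a scrambled guide RNA (Control gRNA) or one against the transcription factor ATF2 (ATF2 gRNA) or JUN (JUN gRNA), with the same treatments. It had 5 libraries in each of 6 groups, except 4 for ATF2 gRNA with vincristine. Per the series design, each genotype of experiment 1 is 1 cell line, so a difference that belongs to a line and one that belongs to its genotype cannot be told apart. The labels do not say that replicates were separate cultures, so p-values measure only the spread between these libraries.

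The targeted genes followed the labels. MAP3K12 had 91.0 ± 2.23 CPM (counts scaled to library size; mean ± SD, n = 4) in untreated WT and 26.3 ± 2.48 in DLK KO, and 19.7 ± 2.42 in DLK LZK double KO. MAP3K13 had 99.1 ± 1.93 CPM in untreated WT, 31.9 ± 1.96 in LZK KO and 29.6 ± 2.00 in DLK LZK double KO. In experiment 2 ATF2 had 129 ± 18.6 CPM with the Control gRNA and 0.526 ± 0.294 with the ATF2 gRNA (n = 5), and JUN had 88.5 ± 6.97 CPM with the Control gRNA and 2.87 ± 0.447 with the JUN gRNA. JUN was also low with the ATF2 gRNA, at 21.0 ± 2.00 CPM. The libraries of experiment 1 held 8.41 to 14.6 M counts (M, mega), and those of experiment 2 were deeper, at 38.9 to 88.4 M.

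The zinc finger genes of chromosome 19 gave a small share of the neurons' RNA. Together they took 0.531 ± 0.0101% of the counts in untreated WT (SD, n = 4) and 0.366 ± 0.0118% in untreated Control gRNA (n = 5). The median gene that was tested had 20.3 CPM in experiment 1 and 11.9 CPM in experiment 2, and 3.84 and 2.41 CPM per kilobase of exon. Per kilobase, the highest levels in experiment 1 were those of ZNF428 (43.0), ZNF91 (42.4) and ZNF146 (30.6), and in experiment 2 those of ZNF428 (51.3), ZNF146 (19.2) and ZNF302 (17.9). ZNF91 is the repressor of SVA retrotransposons. The 2 tables were scaled separately, so levels were compared only within an experiment.

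Some of these genes were almost off in single lines. A gene was called silent in a line when its median was under 0.2 CPM in both treatments of that line and at least 1 CPM in both treatments of another line. In experiment 1 the rule held for ZNF667 in each of the 3 knockout lines and for ZNF471 in DLK KO. In experiment 2 it held for 0 genes. These genes were chosen by their levels, so the values below are a description with no test. Just inside the threshold lay ZNF667 in DLK LZK double KO (0.0915 CPM) and in DLK KO (0.144 CPM), and just outside lay ZNF560 in LZK KO (0.213 CPM) and in DLK KO (0.268 CPM), by the larger of the 2 group medians. ZNF506 and ZNF585A in DLK LZK double KO and ZNF560 in the knockout lines are described beside them, and were chosen after their values were seen.

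RefSeq start regions of genes that were low are shown with their CG dinucleotides, the bases that promoter methylation acts on. They are RefSeq windows of GRCh38.p14, from 250 bases before a RefSeq start of the gene to 50 bases after it. Each is given 5′ to 3′ on the gene's own strand, the minus strand for all of them, with each CG in capitals. The RefSeq start lay 720, 46, 7617 and 9 bases from the start of the gene's listed position for ZNF667, ZNF585A, ZNF585B and ZNF560. The windows of ZNF667 and ZNF585B thus lie within the listed genes. RefSeq windows were matched for 217 of the 249 genes, and those for ZNF471 and ZNF506 are not shown. The window of ZNF667 (chr19:56477296-56477595) holds 42 CG, the most among the tested genes with a window, whose median was 20. The windows of ZNF585A (chr19:37172646-37172945), ZNF585B (chr19:37210487-37210786) and ZNF560 (chr19:9498567-9498866) hold 17, 19 and 16, each below that median of 20. The median of all 35116 RefSeq windows was 14. Methylation was not measured here.
ZNF667: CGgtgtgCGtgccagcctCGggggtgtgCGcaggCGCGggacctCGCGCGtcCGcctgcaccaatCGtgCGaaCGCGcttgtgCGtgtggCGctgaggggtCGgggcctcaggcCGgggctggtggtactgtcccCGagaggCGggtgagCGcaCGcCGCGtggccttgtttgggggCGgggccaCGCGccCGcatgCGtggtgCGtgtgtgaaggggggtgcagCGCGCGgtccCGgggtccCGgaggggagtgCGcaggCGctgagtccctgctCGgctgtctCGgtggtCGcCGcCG
ZNF585A: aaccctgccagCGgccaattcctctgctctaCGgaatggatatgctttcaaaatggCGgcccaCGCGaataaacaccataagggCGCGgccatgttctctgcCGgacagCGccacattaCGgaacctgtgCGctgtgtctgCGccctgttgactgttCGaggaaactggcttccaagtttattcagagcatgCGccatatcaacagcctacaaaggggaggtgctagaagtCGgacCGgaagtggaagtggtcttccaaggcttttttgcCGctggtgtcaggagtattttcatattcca
ZNF585B: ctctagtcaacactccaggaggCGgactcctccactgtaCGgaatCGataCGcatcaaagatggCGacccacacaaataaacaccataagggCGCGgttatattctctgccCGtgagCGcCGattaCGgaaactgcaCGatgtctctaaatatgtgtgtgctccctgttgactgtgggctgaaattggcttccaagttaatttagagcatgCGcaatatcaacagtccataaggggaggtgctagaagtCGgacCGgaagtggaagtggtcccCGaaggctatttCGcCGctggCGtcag
ZNF560: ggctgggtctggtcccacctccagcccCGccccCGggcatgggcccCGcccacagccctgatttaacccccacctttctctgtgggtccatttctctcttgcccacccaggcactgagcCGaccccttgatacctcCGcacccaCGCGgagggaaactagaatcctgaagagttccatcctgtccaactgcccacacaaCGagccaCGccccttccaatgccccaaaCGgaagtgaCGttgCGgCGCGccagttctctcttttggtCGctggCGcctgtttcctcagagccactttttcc
The ZNF667 window is crowded with CG over its whole length, and the other 3 hold theirs in fewer clumps.

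ZNF667 (ENSG00000198046.11, chr19:56439325-56478065, minus strand) was expressed in WT and near 0 in all 3 knockout lines. In untreated WT it had 7.26, 6.34, 6.18 and 6.76 CPM, from 76, 68, 88 and 68 counts, and with vincristine 64, 76, 79 and 62 counts. Of the 24 libraries of the knockout lines 15 had no count of it, and the highest held 17. Untreated DLK KO libraries had 1, 0, 0 and 0 counts, untreated LZK KO libraries 0, 0, 1 and 0, and untreated DLK LZK double KO libraries 0 in all 4. No knockout library reached the lowest WT library. Against the floor of 3 counts over the group, ZNF667 was at least 98.4-fold lower in untreated DLK LZK double KO than in WT, and its level there was at most 1.26% of WT by the upper end of an exact 95% interval. With vincristine the DLK LZK double KO libraries had 1, 1, 17 and 0 counts, 6.28% of WT (3.72 to 9.98%), most of them in 1 library. Such intervals come from counts pooled over the 4 libraries of a group, so they leave out the spread between libraries. They cover counting error only, and the reads carry no molecular identifiers.

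The antisense gene ZNF667-AS1, which starts beside ZNF667 on the other strand, had the same pattern. It had 6.65 ± 1.07 CPM in untreated WT and 6.51 ± 1.42 with vincristine (SD, n = 4). In the knockout lines no library held more than 2 counts of it, except 1 with 7 in DLK LZK double KO with vincristine. The library kit keeps strand, but the strand setting of the counting is not given in the sources used here, so reads of the pair might be assigned to either. ZNF667 was also near 0 in experiment 2, in all its lines: 21 of 29 libraries had no count, the highest had 15, and the Control gRNA libraries, which carry neither knockout, had 0.0116 ± 0.0167 CPM untreated (n = 5).

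**Figure D1:**
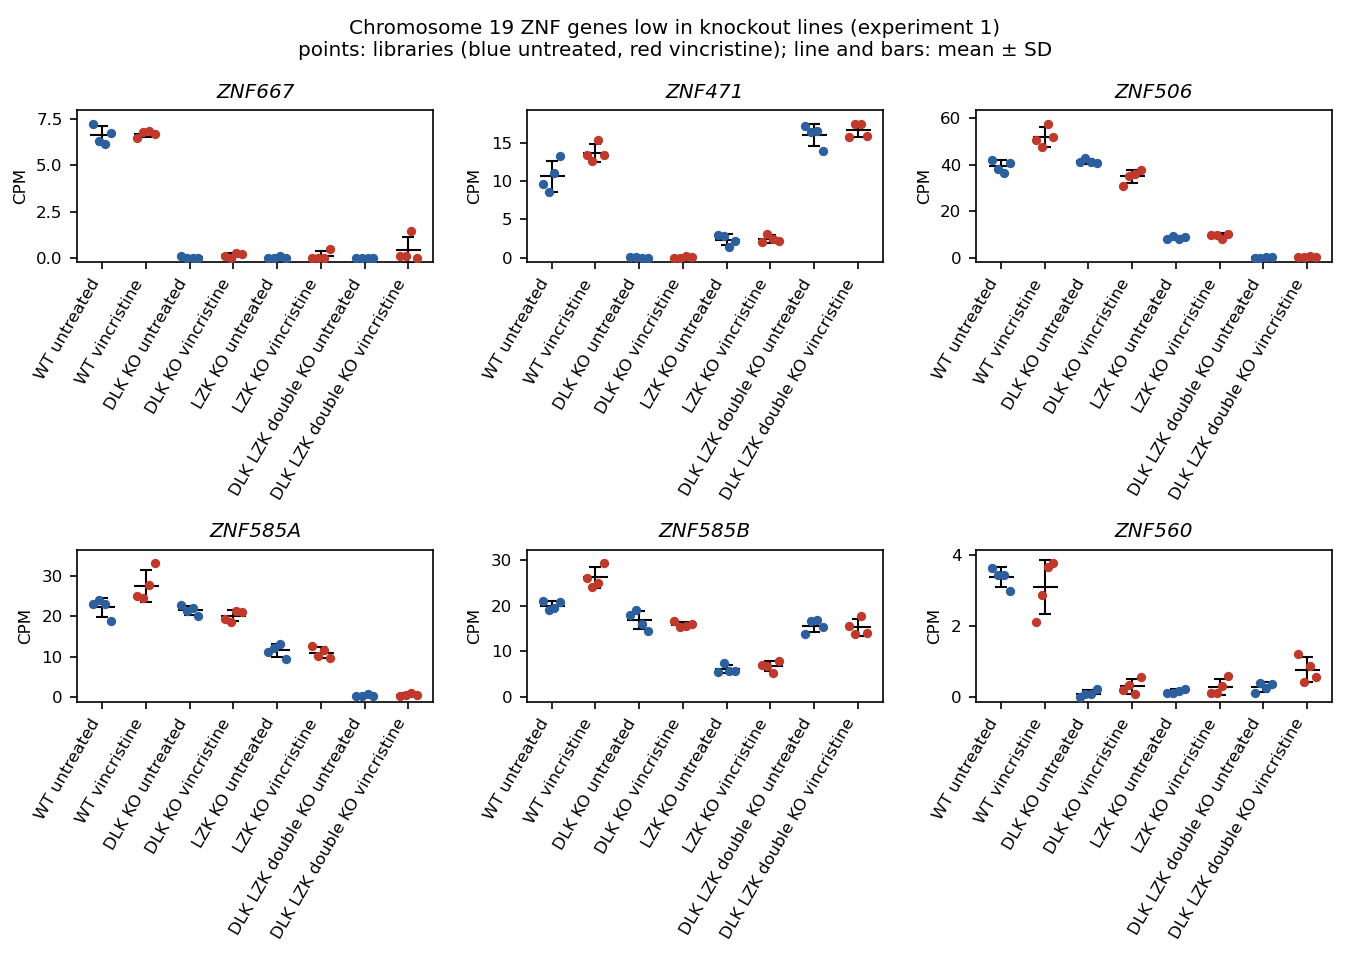
CPM of 6 genes in each library of experiment 1 (points, blue untreated and red vincristine; linear axis from 0), by line and treatment, with the mean ± SD of each group of 4. ZNF667 is near 0 in all 3 knockout lines, ZNF471 in DLK KO, and ZNF506 and ZNF585A in DLK LZK double KO, while ZNF585B is lowest in LZK KO.

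ZNF471 (ENSG00000196263.7, chr19:56507843-56530221, plus strand), the next tested protein-coding gene after ZNF667, differed in which line was low. It had 101, 92, 157 and 134 counts in untreated WT and 1, 1, 0 and 0 in untreated DLK KO, or 0.458% of the WT level (exact 95% interval 0.0552 to 1.66%). In LZK KO it had 26, 24, 15 and 19 counts, 21.7% of WT (17.0 to 27.4%). In DLK LZK double KO it had 166, 205, 198 and 150 counts, 151% of WT (134 to 170%). The double knockout thus did not carry the low level of the DLK KO line, and its range lay above that of LZK KO. In experiment 2 ZNF471 had between 0 and 63 counts in a library, 704 over all 29. Those libraries held 38.9 to 88.4 M counts, against 8.41 to 14.6 M in experiment 1. ZNF471 was thus low in every library of experiment 2, those with the Control gRNA among them.

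ZNF506 and ZNF585A were low in DLK LZK double KO. ZNF506 (ENSG00000081665.13, chr19:19785839-19821751, minus strand) had 440, 411, 519 and 408 counts in untreated WT, 429, 429, 463 and 378 in DLK KO, 70, 78, 88 and 75 in LZK KO, and 0, 1, 2 and 3 in DLK LZK double KO. That is 106% of the WT level in DLK KO, 21.9% in LZK KO (19.3 to 24.7%) and 0.343% in the double knockout (0.126 to 0.748%). Its WT and DLK KO libraries overlapped, and the other lines lay apart from both. ZNF585A (ENSG00000196967.10, chr19:37106734-37172741, minus strand) had 241, 256, 327 and 188 counts in untreated WT and 2, 3, 9 and 3 in DLK LZK double KO, or 1.71% of WT (0.991 to 2.75%). In DLK KO it was at 96.8% of WT and in LZK KO at 52.2%.

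ZNF585B (ENSG00000245680.9, chr19:37181579-37218153, minus strand), the neighbour and close copy of ZNF585A, was low in a different line. It had 219, 204, 277 and 209 counts in untreated WT, 49, 62, 62 and 48 in LZK KO, and 133, 207, 202 and 164 in DLK LZK double KO. ZNF585B fell in LZK KO by 1.72 on the log2 scale (edgeR's quasi-likelihood test, adjusted p = 1.73e-14), and its log2 difference in the double knockout was -0.35. Reads that match both copies might be counted for either, since the handling of such reads is not given in the sources used here. ZNF560 (ENSG00000198028.3, chr19:9466507-9498607, minus strand) had 38, 37, 49 and 30 counts in untreated WT, and 0 to 5 in each untreated library of the knockout lines. DLK KO had 2.88% of the WT level, LZK KO 4.87% and the double knockout 8.58%. With vincristine the double knockout had 11, 6, 10 and 6 counts of ZNF560, 23.6% of WT, so it was low there but not silent. ZNF585A and ZNF585B were both below WT in LZK KO, at 52.2% of the WT level and by 1.72 on the log2 scale.

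The other protein-coding genes next to these were not near 0, though some fell. Around ZNF667 and ZNF471, the log2 differences from untreated WT, given for DLK KO, then LZK KO, then the double knockout, were 0.36, 0.50 and -0.17 for ZNF583 and 0.08, 0.05 and 0.64 for ZNF470. ZNF582 had 0.28, -0.01 and -0.52, and ZFP28, a zinc finger gene with another symbol, -0.06, -0.52 and 0.46. ZNF582 thus fell in the double knockout and ZFP28 in LZK KO. Beside ZNF506 the values were 0.53, 0.40 and 1.00 for ZNF14, beside ZNF585A they were 0.17, 0.16 and 0.54 for ZNF420 and -0.25, -1.72 and -0.35 for ZNF585B, of which the last 2 were called, and beside ZNF560 they were 0.16, 0.28 and 0.32 for ZNF266. Among the protein-coding genes named here ZNF667 and ZNF471 were the only neighbours that were both near 0, in DLK KO. The antisense gene ZNF667-AS1, which lies beside ZNF667, was near 0 in every knockout line, as given above.

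The family as a whole was higher in the double knockout. Against untreated WT, 140 of the 228 genes (61.4%) rose and 14 fell in untreated DLK LZK double KO, by edgeR's quasi-likelihood test with Benjamini-Hochberg adjustment over all genes and an adjusted p under 0.05. Over all 18235 genes tested 45.7% were called in this comparison, with 23.6% higher and 22.1% lower. The median log2 difference was 0.36 for these genes and 0.01 over all genes. Their share of the counts was 0.706 ± 0.0149% in untreated DLK LZK double KO against 0.531 ± 0.0101% in WT (SD, n = 4). In bulk RNA fewer cells of a type and less RNA per cell cannot be told apart.

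Genes of the same kind or place moved in both directions more evenly or mostly down. Of the ZNF genes on other chromosomes, 98 of 240 rose (40.8%) and 52 fell, with a median log2 difference of 0.15. Of the other protein-coding genes of chromosome 19, 85 of 717 rose (11.9%) and 188 fell, with a median of -0.09. The differences among these gene groups were not tested. Of the 140 genes that rose, 131 had every double knockout library above every WT library, 125 had the higher mean also when the vincristine groups were compared, and 11 rose by 2-fold or more. Such counts were not made over all genes, so they describe these genes only. The rise was thus mostly modest in size.

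**Figure D2:**
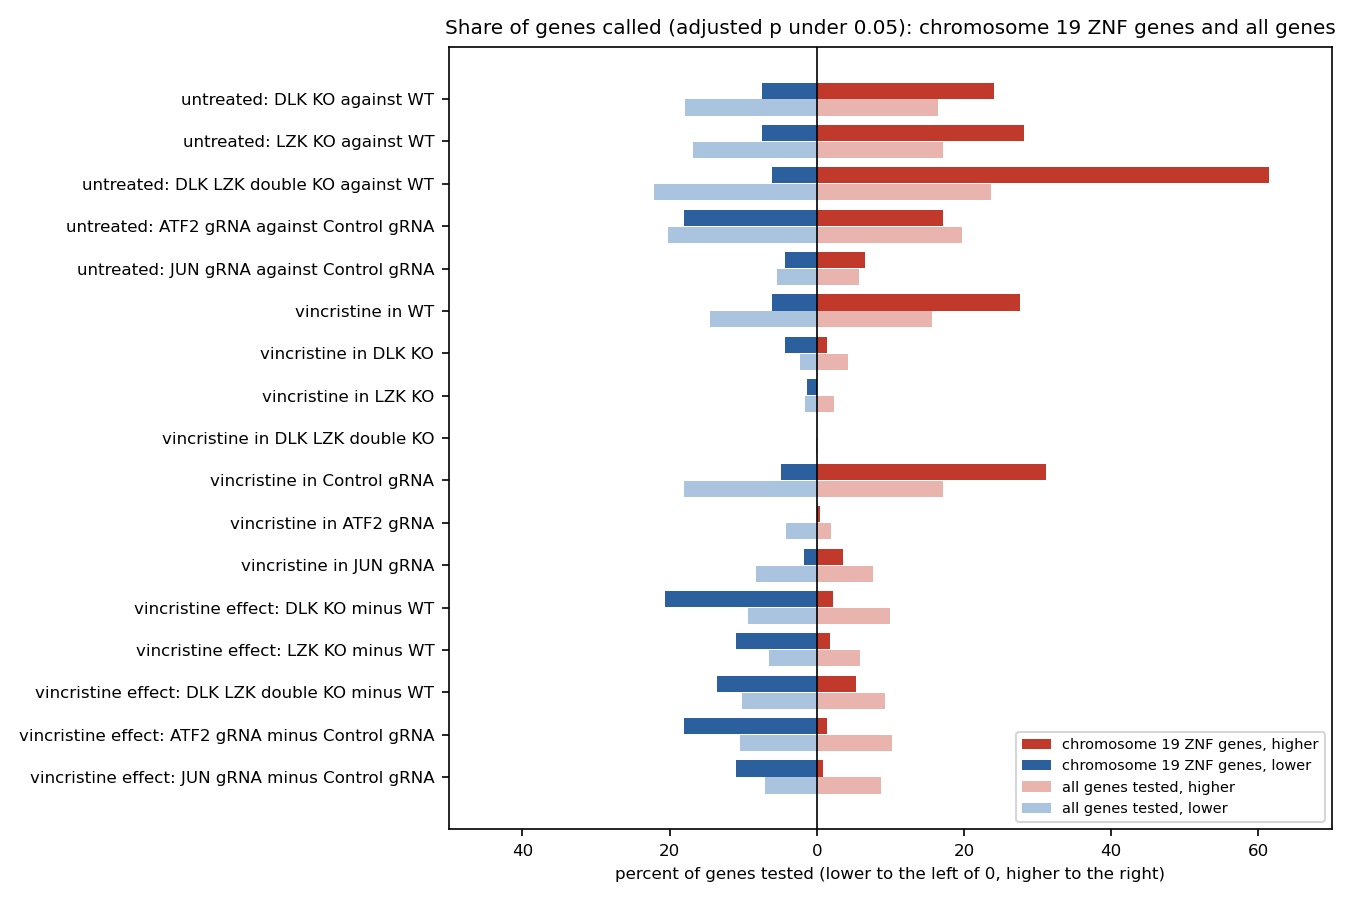
Percent of the tested zinc finger genes of chromosome 19 and of all genes tested that were called higher and lower (adjusted p under 0.05, edgeR's quasi-likelihood test) in each of 17 comparisons. In untreated DLK LZK double KO 61.4% of the zinc finger genes were called higher, against 23.6% of all genes.

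ZNF135 had the largest rise among genes with a mean above 1 on the log2 CPM scale. Its levels were 5.83, 6.15, 4.42 and 5.56 CPM in untreated WT and 14.9, 18.3, 15.9 and 15.2 in DLK LZK double KO. The groups lay well apart, with a log2 difference of 1.56 (SE 0.14, adjusted p = 6.11e-12, edgeR). ZNF880 (chr19:52369917-52385795) rose in each knockout line: it had 44.4, 41.6, 45.8 and 44.3 CPM in WT, 74.2, 69.4, 74.3 and 74.5 in DLK KO, 80.7, 85.4, 85.8 and 83.5 in LZK KO, and 122, 107, 116 and 117 in the double knockout. No library of one line overlapped with another line, and the log2 differences were 0.73, 0.93 and 1.39. ZNF850 rose by 1.24 and ZNF844 by 1.15 in the double knockout.

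ZNF439 (chr19:11848726-11883750) moved in opposite directions in the lines. It had 23.8, 23.2, 21.6 and 23.2 CPM in untreated WT, 32.7, 36.3, 29.3 and 30.1 in DLK KO, 10.1, 9.26, 8.33 and 10.7 in LZK KO, and 53.4, 58.2, 60.7 and 54.8 in DLK LZK double KO. The 4 lines did not overlap. Its log2 differences from WT were 0.48 in DLK KO (adjusted p = 2.44e-05), -1.26 in LZK KO (6.12e-13) and 1.31 in the double knockout (1.2e-15), by edgeR's quasi-likelihood test. So the double knockout had the highest level of a gene that was lowest in one of the single knockouts.

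Among the 14 genes that fell in DLK LZK double KO, 13 also had the lower mean when the vincristine groups were compared, and 6 fell by 2-fold or more. Besides the nearly silent ones, and among genes with a mean of at least 1 on the log2 CPM scale, ZNF584 (chr19:58401504-58418327) fell most, from 31.6, 30.5, 31.4 and 28.5 CPM in untreated WT to 12.4, 15.4, 13.6 and 14.3. These groups did not overlap, and the log2 difference was -1.13 (SE 0.10, adjusted p = 9e-12, edgeR). ZNF442 fell by 0.93 on the log2 scale (adjusted p = 5.17e-07).

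The rise ran through most of the chromosome's runs of zinc finger genes, a run being genes in a row whose starts lie under 1 Mb apart. In the run from ZNF175 to ZNF331, 27 of 37 tested genes rose in DLK LZK double KO, with a median log2 difference of 0.44. In that from ZNF101 to ZNF254 it was 20 of 28 (median 0.46), and in that from ZNF565 to ZNF573 19 of 26 (0.44). The longest run, ZNF628 to ZNF446, which holds ZNF667 and ZNF471, had 35 of 58 (0.32). The runs ZNF653 to ZNF791 and ZNF575 to ZNF296 had 13 of 24 and 11 of 24, and ZNF557 to ZNF846 had 7 of 12. No run of 10 or more tested genes had a median below 0. Beside these counts, 61.4% of the family and 23.6% of all genes rose.

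**Figure D3:**
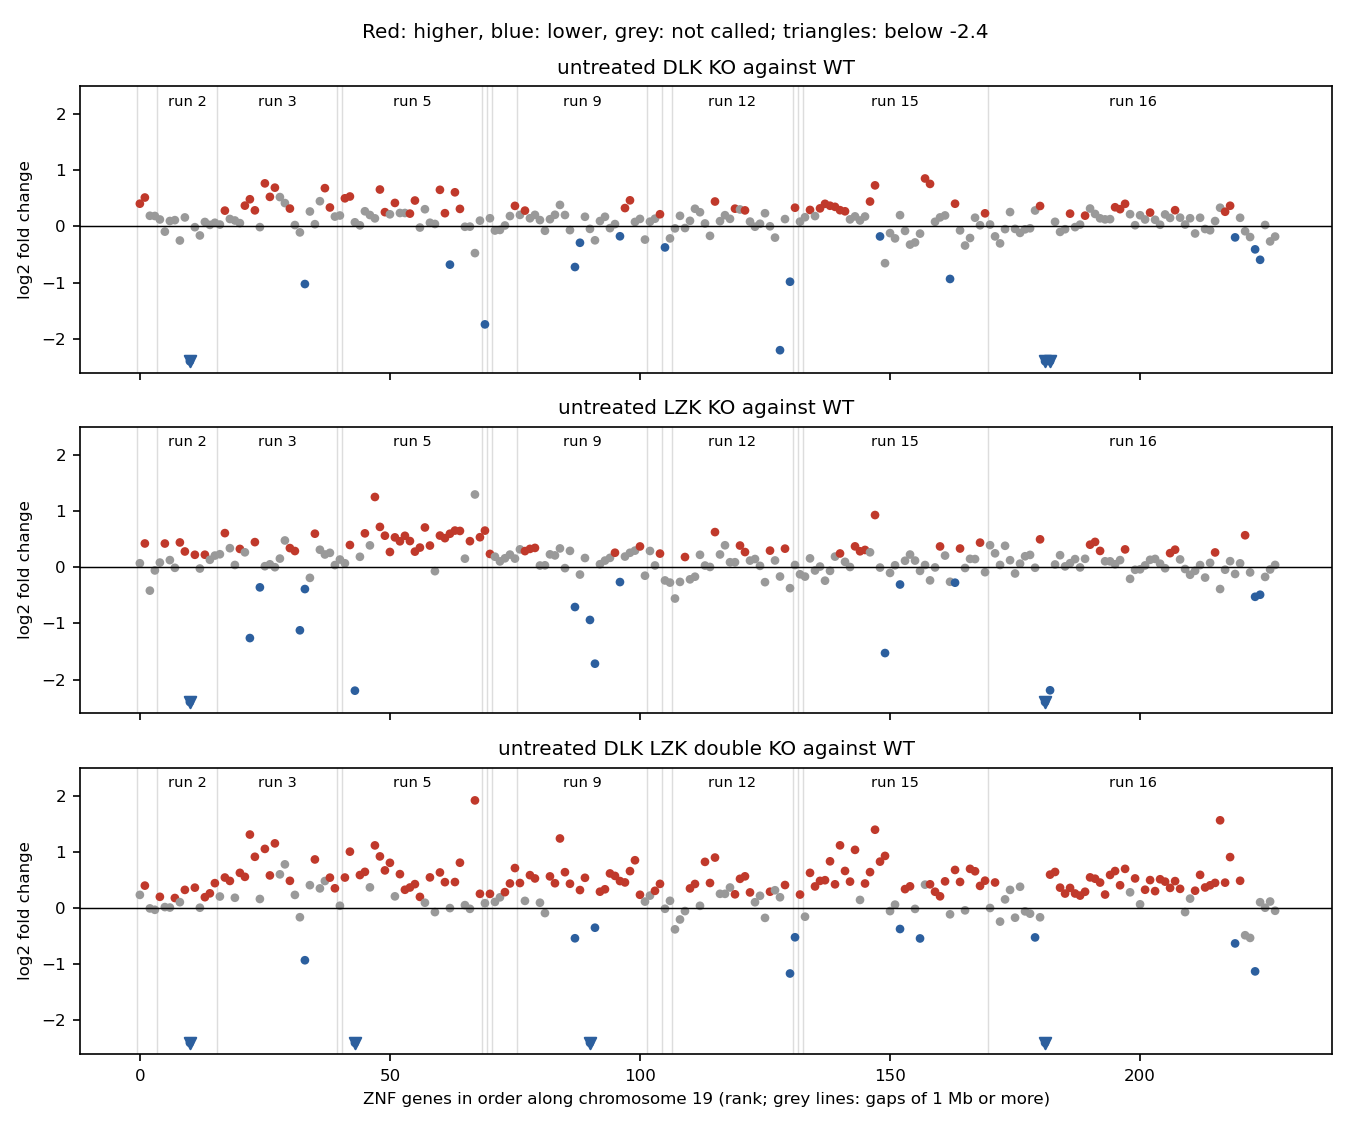
Log2 difference from untreated WT of each tested gene, in its order along chromosome 19, for each knockout line, with the runs marked and triangles for values below the axis. Most genes of the double knockout lie above 0 in every long run, and in LZK KO the run from ZNF101 to ZNF254 lies above the others.

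The single knockouts shared the 4 untreated WT libraries with the double knockout, so their values are given side by side. In DLK KO 55 genes rose and 17 fell, where 16.5% of all genes were higher and 17.9% lower (34.5% called), and the median log2 difference was 0.13. In LZK KO 64 rose and 17 fell, where 17.1% of all genes were higher and 16.8% lower (33.9% called), and the median was also 0.13. Of the ZNF genes on other chromosomes 28.3% rose in DLK KO and 32.5% in LZK KO, beside 24.1% and 28.1% of the family. The run from ZNF101 to ZNF254 had 21 of its 28 genes higher in LZK KO, with a median of 0.49, and 11 of 28 in DLK KO. The run from ZNF175 to ZNF331 had 8 of 37 higher in LZK KO and 13 of 37 in DLK KO. In untreated DLK KO the markers of neural progenitors summed to 204 to 267 CPM and those of neurons to 4130 to 4550, against 710 to 754 and 5552 to 5823 in WT, and in LZK KO to 504 to 656 and 6182 to 7257. Most progenitor markers went against their sum: of 5, 3 were called higher and 1 lower in DLK KO, and 4 higher and 1 lower in LZK KO. Of the 9 neuronal markers 1 was higher and 5 lower in DLK KO, and 2 higher and 3 lower in LZK KO. The part of these markers in the results was not tested.

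Single genes of these lines showed larger changes than the medians. ZNF229 (chr19:44417519-44448578) fell in DLK KO, from 19.2, 22.2, 19.7 and 17.9 CPM in untreated WT to 4.88, 4.49, 4.15 and 3.55. The log2 difference was -2.20 (SE 0.11, adjusted p = 4.6e-18, edgeR), and in LZK KO and the double knockout it was -0.17 and 0.19, neither of them called. ZNF536 (chr19:30228290-30713538), a brain-expressed repressor of neuronal differentiation genes, had 40.1, 41.7, 43.1 and 47.1 CPM in untreated WT and 11.1, 12.3, 15.0 and 12.8 in DLK KO. Its log2 differences were -1.74 in DLK KO (adjusted p = 7.25e-14), 0.65 in LZK KO (1.41e-05) and 0.09 in the double knockout (0.567). Both genes were thus low in the DLK KO line and not in the double knockout. Among genes with a mean of at least 1 on the log2 CPM scale, ZNF90 rose most in LZK KO, by 1.25. ZNF880, ZNF486 (0.72), ZNF738 (0.71) and ZNF724 (0.65) followed. In DLK KO ZNF888 (0.85), ZNF763 (0.77) and ZNF816 (0.76) led at that level.

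Markers of other cell states moved with the double knockout. The 6 markers of pluripotent cells summed to 63.1 to 71.0 CPM in untreated DLK LZK double KO libraries and to 23.6 to 27.3 in WT, and of the 3 that were tested 2 were higher and 1 lower. Most of the sum in DLK LZK double KO was LIN28A, with 53.4 ± 2.72 against 1.88 ± 0.485 CPM in WT (SD, n = 4). POU5F1 had 0.670 against 0.292, NANOG 0.117 against 0.222, and ZFP42 was at 0. In WT most of the sum lay in SOX2 and DPPA4, the other markers of the list, so the higher sum was that of LIN28A. The 5 markers of neural progenitors summed to 114 to 122 CPM against 710 to 754 in WT, with 3 higher and 1 lower, and the fall was that of NES, with 92.1 ± 3.04 against 718 ± 19.8 CPM. Of the 9 neuronal markers 4 rose and 5 fell, and their sum was 6747 to 7032 CPM against 5552 to 5823. The part of these differences in the rise of the zinc finger genes was not tested.

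Among genes known for binding transposable elements, 6 of 7 rose in DLK LZK double KO, with a median log2 difference of 0.64. ZNF91, which represses SVA elements, rose by 0.81, and ZNF93, which represses LINE elements, by 0.64. ZNF534 rose by 0.93, ZNF765 by 0.70, ZNF816 by 0.42 and ZNF649 by 0.38, and ZNF808 had -0.05. ZNF816 lost its call in 4 and ZNF534 in 1 of the 8 fits that left out a library, and both with DESeq2 and without the filter on low counts. Of 12 tested genes known for promoter methylation in tumours 8 rose and 2 fell. Both counts stand beside a family in which 61.4% rose, and 23.6% of all genes. Of the 17 corepressors and other partners through which the family works 6 rose and 1 fell, where 45.7% of all genes were called, with TRIM28 at 0.02 and SETDB1 at 0.10, neither of them called. Those that rose were UHRF1 (1.64), which reads hemimethylated DNA, MORC2 (0.78), ATF7IP (0.64), a partner of SETDB1, KIAA1551 (0.62), SMARCAD1 (0.27) and CBX1 (0.23), and FAM208A, a subunit of the HUSH silencing complex, fell by 0.19.

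Knockdown of ATF2 moved as many genes up as down. With the ATF2 gRNA 39 of 228 genes rose and 41 fell against the Control gRNA, untreated, where 39.9% of all genes were called, 19.7% higher and 20.2% lower. The median log2 difference was -0.02. The largest rise was that of ZNF888, which had 2.39, 1.53, 2.99, 1.73 and 2.01 CPM with the Control gRNA and 4.58, 5.62, 6.31, 5.96 and 6.10 with the ATF2 gRNA. The groups did not overlap, and the log2 difference was 1.41 (adjusted p = 1.17e-08, edgeR's quasi-likelihood test). Among genes with a mean of at least 1 on the log2 CPM scale, ZNF628 rose by 0.65, ZNF430 by 0.63, ZNF524 by 0.61 and ZNF681 by 0.54. Of those that fell at this level, ZNF285 fell by 0.84, ZNF71 by 0.80, ZNF233 by 0.79 and ZNF536 by 0.79. Below that level ZNF560 rose by more than ZNF628, and the lowest log2 difference among all called genes was -1.02. Markers of pluripotent cells summed to 55.2 to 62.3 CPM with the ATF2 gRNA and 24.5 to 28.7 with the Control gRNA, and those of neural progenitors to 717 to 795 and 1295 to 1387. Of the 4 pluripotent markers tested 3 were called higher and 0 lower, and of the 5 progenitor markers 1 was higher and 1 lower. The part of these differences in the result was not tested.

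Knockdown of JUN moved fewer. With the JUN gRNA 15 genes rose and 10 fell against the Control gRNA, where 11.2% of all genes were called, 5.78% higher and 5.46% lower, and the median log2 difference was 0.02. With offsets for the GC content of the genes the split was 9 higher and 17 lower. The count fell to 15 without Control gRNA untreated replicate 1 or 2, and to 12 without JUN gRNA untreated replicate 4. ZNF493 and ZNF577 had the largest rises, by 0.41 each. Among genes with a mean of at least 1 on the log2 CPM scale, the largest falls were those of ZNF285 (-1.15, SE 0.21, adjusted p = 0.00012, edgeR), ZNF562 (-0.98, SE 0.11, 5.56e-09) and ZNF568 (-0.56). Below that level ZNF585B (-1.30) and ZNF585A (-1.25) fell more.

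Genes that fell with these guides included neighbours that share a sequence at their start. ATF2 and its dimers with JUN are known to bind the cyclic AMP response element (CRE), TGACGTCA, which reads the same on both strands. These letters lie in the RefSeq window of 7 of the 204 genes with a window that were tested in experiment 1 (3.43%), and in 1.85% of all 35116 windows. The motif was chosen after the values were seen. The 7 are ZNF266, ZNF426, ZNF121, ZNF561 and ZNF562, which lie within the run from ZNF557 to ZNF846, and ZNF543 and ZNF547. The windows of the neighbours are shown, on the minus strand in the direction of each gene, with the CRE in capitals: ZNF266 at chr19:9435524-9435823, ZNF426 at chr19:9538596-9538895, ZNF121 at chr19:9584455-9584754, ZNF561 at chr19:9621183-9621482 and ZNF562 at chr19:9675051-9675350.
ZNF266: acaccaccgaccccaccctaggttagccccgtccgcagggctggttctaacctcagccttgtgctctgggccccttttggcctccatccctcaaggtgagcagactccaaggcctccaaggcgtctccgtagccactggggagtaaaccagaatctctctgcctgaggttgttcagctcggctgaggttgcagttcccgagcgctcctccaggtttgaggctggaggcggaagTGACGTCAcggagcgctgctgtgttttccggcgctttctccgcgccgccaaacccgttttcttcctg
ZNF426: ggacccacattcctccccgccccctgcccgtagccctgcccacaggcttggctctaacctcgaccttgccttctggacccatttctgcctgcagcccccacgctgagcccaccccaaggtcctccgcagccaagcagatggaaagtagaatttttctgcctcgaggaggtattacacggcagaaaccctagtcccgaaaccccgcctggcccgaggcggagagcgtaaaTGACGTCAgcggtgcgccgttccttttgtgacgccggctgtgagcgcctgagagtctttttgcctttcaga
ZNF121: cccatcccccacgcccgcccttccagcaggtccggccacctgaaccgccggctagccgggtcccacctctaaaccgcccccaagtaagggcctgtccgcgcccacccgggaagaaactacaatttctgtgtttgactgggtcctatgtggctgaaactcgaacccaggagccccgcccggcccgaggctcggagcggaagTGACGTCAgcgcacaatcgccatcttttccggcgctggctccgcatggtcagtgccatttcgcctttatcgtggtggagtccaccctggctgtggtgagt
ZNF561: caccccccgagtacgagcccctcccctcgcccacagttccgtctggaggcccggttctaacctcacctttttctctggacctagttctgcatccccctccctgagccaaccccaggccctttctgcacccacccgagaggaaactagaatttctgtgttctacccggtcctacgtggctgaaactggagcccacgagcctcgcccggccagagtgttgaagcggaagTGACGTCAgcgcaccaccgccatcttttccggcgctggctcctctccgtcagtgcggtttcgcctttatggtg
ZNF562: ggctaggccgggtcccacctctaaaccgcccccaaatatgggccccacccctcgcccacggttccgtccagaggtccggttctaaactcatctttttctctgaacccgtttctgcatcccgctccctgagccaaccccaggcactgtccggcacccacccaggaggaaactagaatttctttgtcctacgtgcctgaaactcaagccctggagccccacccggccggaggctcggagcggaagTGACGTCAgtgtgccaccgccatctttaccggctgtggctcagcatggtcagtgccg
The CRE begins 17, 21, 50, 23 and 7 bases before the RefSeq start, in the order shown. That start lay 5, 0, 29, 167 and 14 bases from the start of the gene's listed position. In ZNF266, ZNF121, ZNF561 and ZNF562 the 6 bases before it are the same, so that the 14 letters CGGAAGTGACGTCA recur, searched on both strands. These lie in 4 of the 217 windows of the family (1.84%) and in 19 of all 35116 (0.0541%). The 14 letters were taken from the ZNF121 window, which is among those counted, so the 2 shares are no test of an excess in the family. ZNF426 differs from the 14 letters by G3T and G6A, counted from 1 at their 5′ end. ZNF560, which lies between ZNF266 and ZNF426, differs by C13T and A14G and so lacks the CRE. A match to these letters is a description and not a measured binding site.

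With the ATF2 gRNA 4 of the 7 genes with a CRE fell and 0 rose, with a median log2 difference of -0.20, where 18% of the family and 20.2% of all genes fell. ZNF121 had 54.5, 54.2, 68.2, 58.1 and 60.6 CPM with the Control gRNA, 30.7, 35.6, 37.6, 38.5 and 30.1 with the ATF2 gRNA, and 55.4, 55.8, 53.5, 57.4 and 58.7 with the JUN gRNA. The ATF2 gRNA libraries lay below all others, and those of Control and JUN gRNA overlapped. Its log2 difference was -0.78 with the ATF2 gRNA (SE 0.07, adjusted p = 3.11e-12) and -0.08 with the JUN gRNA, where it was not called (edgeR's quasi-likelihood test).

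ZNF562 fell with both guides. It had 13.4, 14.7, 12.2, 13.8 and 11.6 CPM with the Control gRNA, 11.6, 8.96, 9.76, 8.98 and 8.05 with the ATF2 gRNA, and 5.93, 6.34, 7.45, 6.90 and 6.55 with the JUN gRNA. The JUN gRNA libraries were the lowest and overlapped with neither other group, while the highest ATF2 gRNA library lay just under the lowest Control gRNA library. The log2 differences were -0.47 (adjusted p = 0.000503) and -0.98 (5.56e-09), by edgeR's quasi-likelihood test. ZNF561 had 31.4, 32.4, 31.2, 32.1 and 31.3 CPM with the Control gRNA, 24.3, 26.0, 25.9, 25.2 and 28.0 with the ATF2 gRNA and 24.4, 29.6, 24.6, 24.6 and 26.2 with the JUN gRNA, a fall of 0.29 on the log2 scale with each guide (adjusted p = 0.000769 and 0.00342). Both knockdown groups lay below every Control library. Both comparisons use the same Control gRNA libraries.

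The remaining genes with a CRE moved less. ZNF426 fell by 0.20 with the ATF2 gRNA (adjusted p = 0.00837, edgeR) and had -0.15 with the JUN gRNA (0.154). ZNF266 had 0.02 and -0.02, ZNF543 -0.14 and -0.21, and ZNF547 -0.06 and 0.18, none of them called. With the ATF2 gRNA 18% of the family and 20.2% of all genes fell, and with the JUN gRNA 4.39% and 5.46%. In the run from ZNF557 to ZNF846, 5 of 12 tested genes fell with the ATF2 gRNA and 3 of 12 with the JUN gRNA. The fifth with the ATF2 gRNA was ZNF699, by 0.60, whose window has no CRE, and ZNF560 rose by 1.09 (adjusted p = 0.0011). In experiment 1, 6 of the 7 genes with a CRE rose in untreated DLK LZK double KO, where 61.4% of the family and 23.6% of all genes rose. JUN was low in both knockdowns, at 21.0 ± 2.00 CPM with the ATF2 gRNA and 2.87 ± 0.447 with the JUN gRNA, and its part in the ATF2 result was not tested. The letters of the AP-1 site, TGAGTCA or TGACTCA, lie in the windows of 5 tested genes (2.45%) and in 4.95% of all windows.

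**Figure D4:**
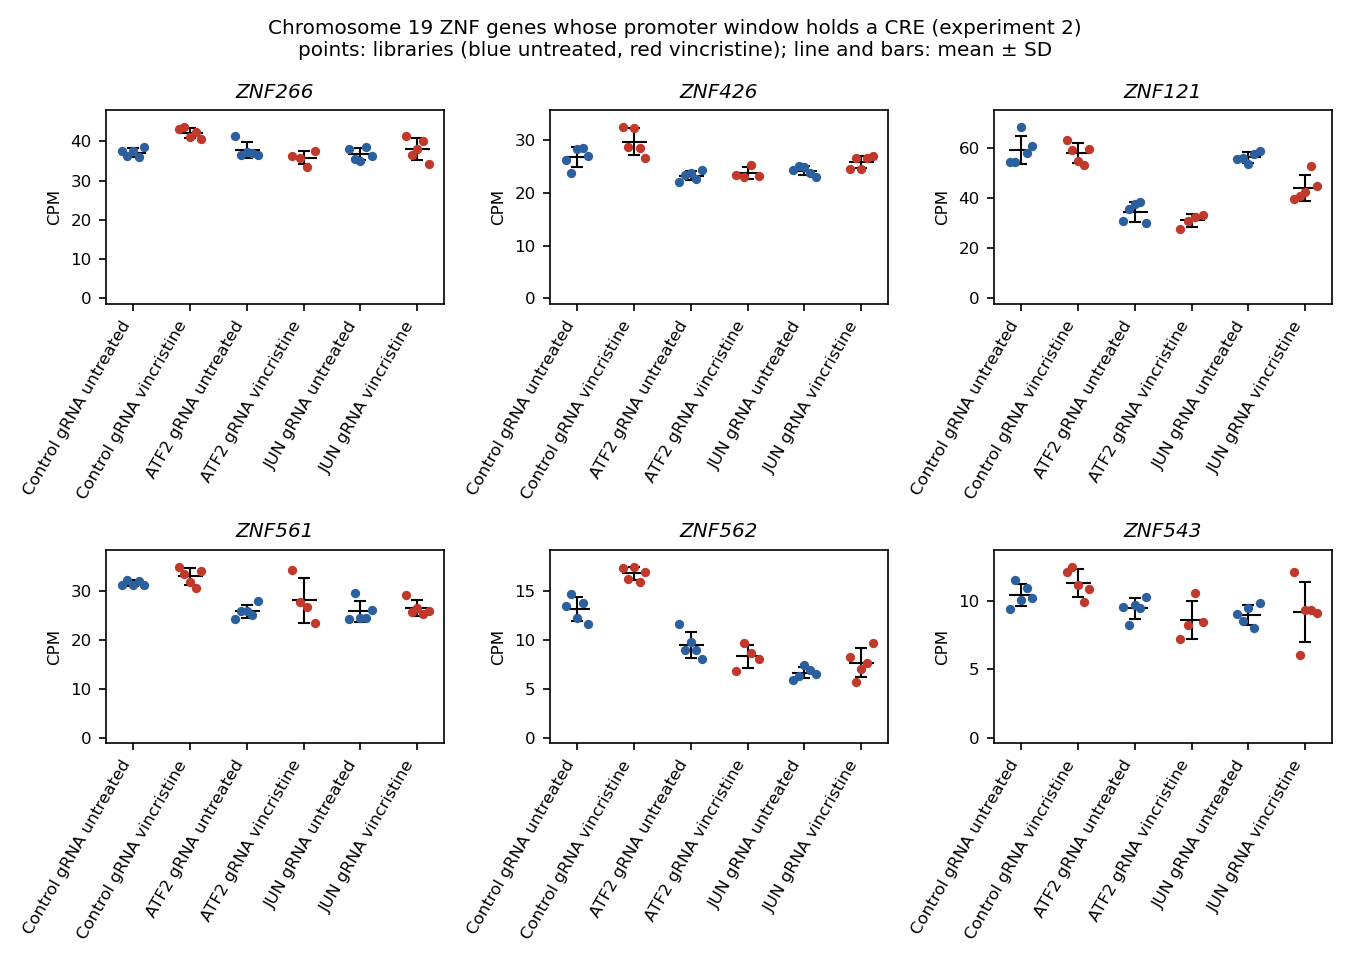
CPM of 6 genes with a CRE in their RefSeq window, in each library of experiment 2 (points), by guide and treatment, with the mean ± SD of each group. ZNF121 is low with the ATF2 gRNA, ZNF562 is lowest with the JUN gRNA, and ZNF266 does not separate the guides.

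Vincristine raised more of these genes than it lowered in neurons with both kinases and no knockdown. In WT 63 of 228 genes rose (27.6%) and 14 fell, where 30.2% of all genes were called, 15.7% higher and 14.5% lower. With the Control gRNA 71 rose (31.1%) and 11 fell, where 35.3% of all genes were called, 17.1% higher and 18.1% lower. The median log2 differences were 0.12 and 0.18. Of the ZNF genes on other chromosomes 19.6% were higher in WT and 29.9% with the Control gRNA, and of the other protein-coding genes of chromosome 19, 9.07% and 13.8%. The WT count was 47 in place of 77 when only the 2 WT groups were fitted. WT vincristine replicate 4 differed most from its group (27.8 to 40.8 chi-square per gene against the other 3, which had 3.61 to 6.77 among themselves, while pairs in other groups of experiment 1 had 1.58 to 29.4), and without it the count was 73. Markers of neural progenitors summed to 905 to 1932 CPM in WT with vincristine against 710 to 754 untreated, and with the Control gRNA to 2408 to 2503 against 1295 to 1387. The part of these markers in the result was not tested.

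The responses of the 2 experiments, which share no library, overlapped in part. 39 genes were higher in both, or 61.9% of those higher in WT and 54.9% of those higher with the Control gRNA, and 2 were lower in both. ZNF154 was called in opposite directions, at 0.17 in WT and -0.15 with the Control gRNA. Of the 227 genes tested in both experiments 173 had the same sign, and the log2 differences had a Pearson r of 0.573 and a Spearman rho of 0.579. This is a description across genes, which are not independent replicates and share their libraries within an experiment.

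**Figure D5:**
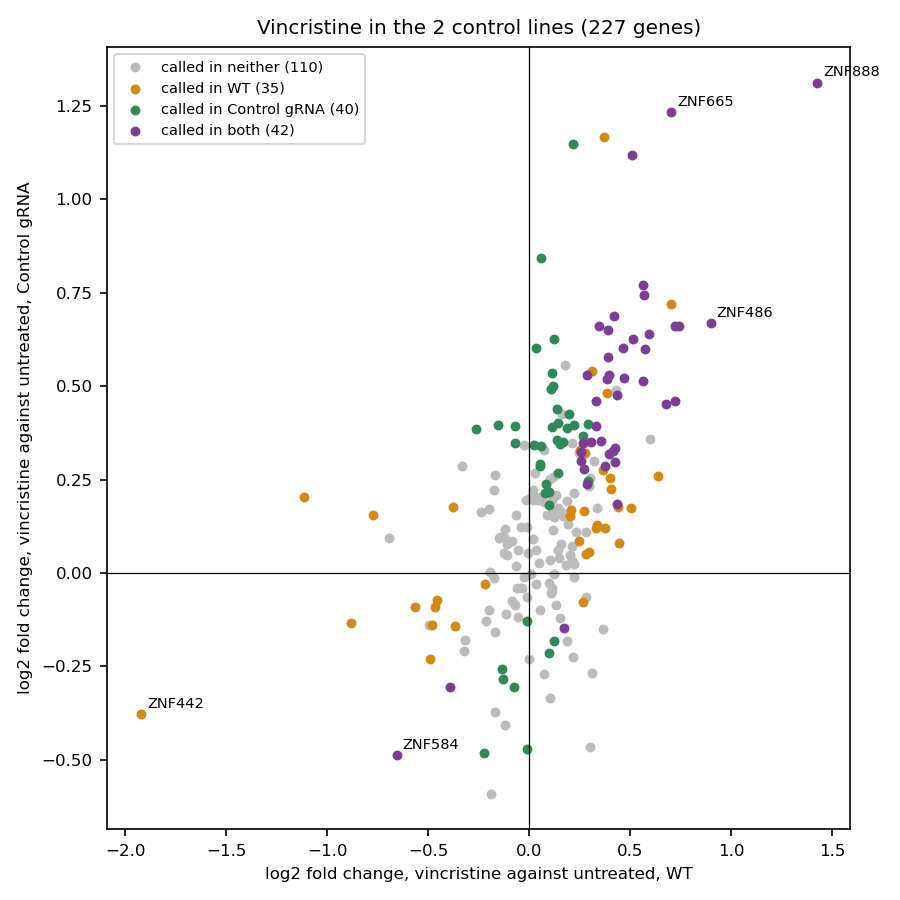
Log2 difference between vincristine and untreated libraries in WT (horizontal axis) and with the Control gRNA (vertical axis) for the 227 genes tested in both experiments, by whether the gene was called in one, both or neither. ZNF888 lies far to the upper right, and ZNF442 far to the left.

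ZNF888 (chr19:52904417-52923481) had the largest rise with vincristine in both. It had 1.53, 1.03, 1.26 and 1.59 CPM in untreated WT and 3.04, 3.96, 3.13 and 4.42 with vincristine, and with the Control gRNA 2.39, 1.53, 2.99, 1.73 and 2.01 untreated and 5.41, 5.30, 5.22, 5.06 and 5.74 with vincristine. Treated and untreated libraries did not overlap in either. The log2 differences were 1.42 (SE 0.24, adjusted p = 1.77e-05) and 1.31 (SE 0.18, 7.57e-08), by edgeR's quasi-likelihood test. Among genes with a mean of at least 1 on the log2 CPM scale, in WT ZNF486 (0.90), ZNF784 (0.74), ZNF773 (0.72) and ZNF235 (0.72) followed, and with the Control gRNA ZNF665 (1.23), ZNF525 (1.12), ZNF628 (0.84) and ZNF846 (0.77).

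ZNF442 (chr19:12345949-12365905) had the largest fall in WT, from 20.2, 15.8, 14.9 and 12.6 CPM to 3.95, 4.41, 3.74 and 4.64. The groups lay far apart, with a log2 difference of -1.92 (SE 0.15, adjusted p = 1.07e-12, edgeR). ZNF77 (-0.88), ZNF799 (-0.77), ZNF584 (-0.66) and ZNF443 (-0.56) also fell in WT. With the Control gRNA the largest falls were those of ZNF584 (-0.49), ZNF101 (-0.48), ZNF587B (-0.47), ZNF8 and ZNF491 (-0.31 each). ZNF584 thus fell in both.

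Along the chromosome the run from ZNF175 to ZNF331, in which ZNF888 lies, had 16 of 37 genes higher with vincristine in WT and 22 of 38 with the Control gRNA. The run from ZNF575 to ZNF296 had 9 of 24 and 10 of 24. The run from ZNF653 to ZNF791, which holds ZNF442, ZNF799 and ZNF443, had 2 of 24 in each. Of the 7 genes known for binding transposable elements, ZNF93, ZNF765, ZNF808 and ZNF816 rose in both: by 0.57, 0.47, 0.39 and 0.41 in WT and by 0.74, 0.52, 0.53 and 0.33 with the Control gRNA. Of the genes known for promoter methylation in tumours, 8 of 12 rose in WT, and 4 of 11 rose and 1 fell with the Control gRNA. Beside these counts, 27.6% of the family and 15.7% of all genes rose in WT, and 31.1% and 17.1% with the Control gRNA.

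Vincristine moved few of the genes in the other lines. In DLK KO 3 rose and 10 fell, where 6.53% of all genes were called, 4.24% higher and 2.28% lower. ZNF536 rose by 0.64, ZNF358 by 0.55 and ZNF324 by 0.41, and ZNF799 fell by 0.86, ZNF440 by 0.44 and ZNF587B by 0.35. Of the 8 fits that left out a library, ZNF324 lost its call in 7, ZNF587B in 5, ZNF358 in 4 and ZNF799 in 1, and ZNF536 and ZNF440 in 0. GC offsets lowered the values of ZNF324 to 0.23, where it was not called, and of ZNF358 to 0.25. The count of 13 ran from 4 to 12 when 1 library was left out: it was 7 without DLK KO untreated replicate 1, 4 without untreated replicate 2, 5 without vincristine replicate 1, 6 without vincristine replicate 2 and 7 without vincristine replicate 4. It was 21 with DESeq2, 37 with only the 2 groups fitted, and 5 with GC offsets.

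In LZK KO 0 rose and 3 fell, ZNF442 (-0.76), ZNF607 (-0.36) and ZNF566 (-0.34), where 3.88% of all genes were called, 2.27% higher and 1.61% lower. ZNF566 lost its call in 6 and ZNF607 in 4 of the 8 fits that left out a library, and ZNF442 in 0. The count was 1 without LZK KO untreated replicate 1, vincristine replicate 1 or vincristine replicate 4, and 5 without untreated replicate 3. In DLK LZK double KO 0 of 228 were called by edgeR, with 14 at an unadjusted p under 0.05, and 0 by DESeq2, where 0.0658% of all genes were called, 0.00548% higher and 0.0603% lower. With the ATF2 gRNA the only gene called was ZNF274, which binds the ends of zinc finger genes and recruits SETDB1, with a log2 difference of 0.24 (adjusted p = 0.042, edgeR), where 6.1% of all genes were called, 1.88% higher and 4.22% lower. That call was lost in 6 of the 9 fits that left out a library, without untreated replicate 1, 2 or 4 or vincristine replicate 3, 4 or 5, with the replicate number as a block and with only the groups compared, while the value stayed between 0.20 and 0.29 over all alternatives. In turn 4 other genes were called without ATF2 gRNA untreated replicate 1. Without ATF2 gRNA vincristine replicate 2 the count was 2. With the JUN gRNA 8 rose, led by ZNF888 (0.83), ZNF784 (0.45) and ZNF536 (0.36), and 4 fell, among them ZNF442 (-0.63), ZNF121 (-0.35) and ZNF584 (-0.30), where 15.9% of all genes were called, 7.58% higher and 8.31% lower. This count of 12 was 6 without JUN gRNA vincristine replicate 4. ZNF536 lost its call in all 10 fits that left out a library, ZNF784 in 6, ZNF442 in 3, ZNF584 in 2, and ZNF888 and ZNF121 in 0.

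The difference between the responses was tested as an interaction term. Against WT, 52 genes differed in DLK KO, of which 47 had the lower response (19.4% of all genes differed, 9.95% with the higher and 9.41% with the lower response), with a median difference of -0.18. In LZK KO 29 differed, 25 of them lower (12.4% of all genes, 5.88% higher and 6.53% lower), and in DLK LZK double KO 43, of which 31 were lower (19.4% of all genes, 9.21% higher and 10.2% lower). Against the Control gRNA 44 differed with the ATF2 gRNA, 41 of them lower (20.6% of all genes, 10.2% higher and 10.4% lower; median -0.23), and 27 with the JUN gRNA, 25 of them lower (15.8% of all genes, 8.71% higher and 7.06% lower). The 63 genes that rose in WT had median log2 differences of 0.39 with both kinases present, against -0.04 (DLK KO), 0.03 (LZK KO) and 0.00 (DLK LZK double KO), but they were chosen in the WT contrast. The 71 that rose with the Control gRNA had 0.40, and 0.00 with the ATF2 gRNA and 0.10 with the JUN gRNA, chosen likewise.

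ZNF442 and ZNF888 show how the lines differed. Where vincristine lowered ZNF442 in WT, its level was already lower in untreated DLK KO, at 7.77 ± 1.12 CPM against 15.9 ± 3.16 in WT (SD, n = 4), and was 7.40 ± 1.17 with vincristine. In DLK LZK double KO it was 8.31 ± 0.617 untreated and 7.83 ± 0.761 with vincristine. Its response was 1.85 higher on the log2 scale in DLK KO than in WT and 1.84 higher in the double knockout. ZNF888 was 2.45 ± 0.471 CPM in untreated DLK KO and 1.64 ± 0.148 with vincristine, against a rise in WT, a difference of -1.99. With the ATF2 gRNA its untreated level, 5.72 ± 0.682 CPM (n = 5), was already near that of the Control gRNA with vincristine, 5.35 ± 0.251, and with vincristine it was 4.55 ± 1.28 (n = 4). These are statements on levels, and the untreated levels and the responses share libraries.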

How the data were processed

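The authors deposited 1 table of raw counts per gene for each experiment, as whole numbers from paired reads of poly(A)-selected, stranded libraries. Per the submitters' processing notes, cutadapt 3.4, STAR and featureCounts of Subread 2.0.1 were used with build GRCh38; strand and multimapping settings are not given in the sources used here. Of 58440 identifiers 58320 matched a GENCODE 29 symbol, and 0 count columns were left unused. From the deposited counts, each experiment was fitted alone with edgeR 4.0.16 in R 4.3.3 (filterByExpr, TMM, robust quasi-likelihood, 1 mean per group), after a check on simulated data. Adjusted p-values are Benjamini-Hochberg over all genes tested, called under 0.05. CPM are deposited counts scaled to library size with TMM factors. Named genes are the up to 5 highest and 5 lowest called ones of a comparison (3 each with vincristine in other lines and for differences) with a mean log2 CPM of at least 1. Replicate numbers were not used as pairs in the main fit, since same-numbered libraries did not deviate together in every pair. No pair of libraries was a copy. The genes, lists and rules were chosen with earlier results of these data known. DESeq2 1.42.0, other filters and left-out libraries were alternatives.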

Additional observations from a re-analysis of the deposited data

Results flagged for a closer look

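Of 84 groups of libraries tested, 8 held a library far from the rest by Dixon's criterion. Chance alone gives about 1 in 20 such groups for continuous values. That rate does not hold for counts near 0, where a single read can set a library apart, so the 8 are no test of an excess. ZNF667 gave 4 of them, all in knockout lines where it was near 0: 0.0956 CPM in DLK KO untreated replicate 1, 0.0925 in LZK KO untreated replicate 3, 0.484 in LZK KO vincristine replicate 4 and 1.47 in DLK LZK double KO vincristine replicate 3. The other libraries of those untreated groups had no count of it. ZNF585A had 0.755 CPM in DLK LZK double KO untreated replicate 3. With the ATF2 gRNA, ZNF426 had 25.4 CPM in vincristine replicate 4 and ZNF266 had 41.4 CPM in untreated replicate 1, the library in which the whole family took 0.360% of the counts, the lowest share of its group.

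The response to vincristine differed from that of WT, by the interaction term of edgeR's quasi-likelihood test, in 52 genes (DLK KO), 29 genes (LZK KO) and 43 genes (DLK LZK double KO), and from that of the Control gRNA in 44 genes with the ATF2 gRNA and 27 with the JUN gRNA. In DLK KO the response was higher on the log2 scale for ZNF442 (1.85), ZNF584 (0.92) and ZNF574 (0.65), and lower for ZNF888 (-1.99), ZNF486 (-1.22) and ZNF846 (-1.01). In LZK KO it was higher for ZNF442 (1.16), ZNF77 (0.73) and ZNF555 (0.38), and lower for ZNF829 (-0.91), ZNF773 (-0.71) and ZNF235 (-0.66). In DLK LZK double KO ZNF442 (1.84) and ZNF77 (0.87) had the higher response, and ZNF888 (-1.37), ZNF235 (-0.83) and ZNF701 (-0.79) the lower. ZNF667, whose untreated double knockout libraries had no count, had a fitted difference of 5.16 (adjusted p = 0.0185, edgeR) that depends on the prior count, and it was 2.55 and not called without DLK LZK double KO vincristine replicate 3, which held 17 of the 19 counts. With the ATF2 gRNA the response was higher for ZNF584 (0.47), ZNF580 (0.38) and ZNF738 (0.35), and lower for ZNF888 (-1.64), ZNF665 (-1.34) and ZNF525 (-1.11). With the JUN gRNA ZNF738 (0.32) and ZNF428 (0.23) had the higher response, and ZNF665 (-1.58), ZNF525 (-1.06) and ZNF569 (-0.66) the lower.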

How the results depend on the processing

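In untreated DLK LZK double KO the number of genes called was 140 to 157 and the number higher 125 to 142 under other scaling, filter, tool, GC offsets and fits. Counts of the vincristine comparisons moved more. With only the groups compared in the fit, they were 47 in WT (77 as reported), 37 in DLK KO (13), 1 in LZK KO (3), 2 in DLK LZK double KO (0), 0 with the ATF2 gRNA (1) and 10 for the difference of LZK KO from WT (29). Without the filter they were 1 in LZK KO, 1 in DLK LZK double KO, 31 for the difference of DLK KO from WT (52) and 15 for that of LZK KO. DESeq2 gave 21 in DLK KO and 3 with the ATF2 gRNA. GC offsets gave 5 in DLK KO, 4 with the ATF2 gRNA and 66 for the difference of the double knockout (43). GC offsets also moved the split of higher and lower genes from 64 and 17 to 49 and 24 in untreated LZK KO. With a limit of 0.5 CPM 11 pairs of gene and line were silent in place of 4, and 3 with a limit of 0.1. The cause of these shifts was not tested.

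Same-numbered libraries did not deviate together in every pair (lowest r of a pair from -0.313 to 0.00279 over the comparisons), so the main fit did not pair them. With so few libraries in a group this check cannot exclude a pairing, and a single pair reached 0.220, with vincristine in LZK KO. With the replicate number as a block 8 genes were called with vincristine in DLK KO and 0 with the ATF2 gRNA, and the counts of all other comparisons stayed within 1.5 times. At most 2 libraries of a comparison correlated best with their own number.

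Leaving out 1 library gave 51 to 72 genes in untreated DLK KO, 60 to 81 in LZK KO, 137 to 150 in DLK LZK double KO, 67 to 81 with the ATF2 gRNA and 12 to 32 with the JUN gRNA. With vincristine it gave 65 to 73 in WT, 4 to 12 in DLK KO, 1 to 5 in LZK KO, 0 in each fit of the double knockout, 74 to 90 with the Control gRNA, 0 to 4 with the ATF2 gRNA and 6 to 11 with the JUN gRNA. The differences gave 43 to 57, 22 to 34, 35 to 55, 36 to 62 and 21 to 36, in the order DLK KO, LZK KO, DLK LZK double KO, ATF2 gRNA and JUN gRNA, and the silent pairs 4 to 5.

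Of 3031 alternative values of 188 results on named genes, 2854 kept direction and call, 162 lost the call, 9 gained it and 6 changed sign, none of them called. Leaving out 1 library gave -0.0120 to 0.0356 for ZNF266 and -0.180 to 0.0738 for ZNF547 with the ATF2 gRNA (positive for ZNF547, negative for ZNF266, without ATF2 gRNA untreated replicate 1), and -0.0242 (without untreated replicate 1 of the double knockout) to 0.240 for ZNF132 in DLK LZK double KO. With vincristine in WT it gave -0.0467 (without vincristine replicate 4) to 0.0547 for ZNF91 and -0.0152 (without untreated replicate 3) to 0.0685 for ZNF667. GC offsets gave -0.0422 for ZNF677 with vincristine and the Control gRNA. Levels of ZNF667 and ZNF560 in the knockout lines rest on 0 to 17 counts in a library.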

Other observations

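ZNF560 had 1.79, 0.661, 1.94, 1.34 and 1.90 CPM in the untreated libraries with the Control gRNA and 2.81, 3.58, 3.31, 2.81 and 3.93 with the ATF2 gRNA, the libraries behind its rise. With the JUN gRNA it had 0.941, 0.833, 0.619, 1.25 and 1.01 CPM, which overlaps with the Control gRNA. ZNF506, nearly silent in DLK LZK double KO, had between 171 and 678 counts in every library of experiment 2.

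ZNF90, in the run from ZNF101 to ZNF254, was higher in both lines with the LZK knockout: it had 2.01, 1.40, 1.47 and 1.39 CPM in untreated WT, 3.41, 3.61, 4.72 and 3.06 in LZK KO and 3.85, 2.89, 2.60 and 4.38 in DLK LZK double KO. Its log2 differences were 1.25 and 1.11, and 0.14 in DLK KO, where it was not called. ZNF665 and ZNF525, which lie in the run from ZNF175 to ZNF331, rose with vincristine with the Control gRNA, from at most 2.41 CPM in any untreated library to at least 3.38 in any treated one for ZNF665, and from at most 3.61 to at least 4.22 for ZNF525. With the JUN gRNA ZNF665 had 1.69 to 2.66 CPM untreated and 0.924 to 2.28 with vincristine.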
